A study of Mus musculus with 5 samples.

Results

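The interferon regulatory factors (IRFs) are a family of transcription factors, and this account follows 8 of their mouse genes, Irf1, Irf2, Irf3, Irf4, Irf5, Irf7, Irf8 and Irf9, across 5 kinds of cells. The members were taken by gene symbol, and all 8 were found among the 34970 gene symbols of the count table. The family was chosen with earlier results of these data known. All 8 are annotated as protein-coding genes in GENCODE release M21 on mm10. RNA sequencing was done on 5 libraries from wild type mouse cells, 1 library per kind of cell. MCC is labelled a myeloid-like cell complex, and the series title speaks of reprogramming fibroblasts into functional macrophages. PB is a library of blood cells, described in the design text as CD45-positive (CD45 is the leukocyte surface protein encoded by Ptprc), BM one of bone marrow, iPSC one of induced pluripotent stem cells and MEF one of mouse embryonic fibroblasts. The sources used here do not give how the MCC cells were made, whether any IRF gene or any other gene was introduced into them, the strain or the age. An introduced copy and the cell's own gene would be counted under the same symbol.

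IRF proteins share a DNA-binding domain at the amino end that recognises GAAA repeats, the core of the interferon-stimulated response element (ISRE). IRF3 and IRF7 are activated by kinases downstream of viral nucleic acid sensors and switch on the interferon genes, IRF5 acts below Toll-like receptors, and IRF9 joins STAT proteins to form the complex that carries the type I interferon signal to its target genes. IRF1 is induced by interferon gamma and activates transcription, IRF2 binds the same elements and can oppose it, and IRF8 and IRF4 bind DNA together with PU.1 in myeloid and lymphoid cells.

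The stretches around the starts of 3 members are shown because they hold the only matches among the members to the interferon-linked motifs searched. The windows come from RefSeq on GRCm38.p6, each with 250 bases before and 50 after a gene start, and the 8 members had 11 windows in all. The motifs were the ISRE (GAAA, any 2 bases, GAAA), the element bound by STAT dimers (GAS, TTCNNNGAA) and the element bound jointly by PU.1 and an IRF (GGAA, any 2 bases, GAAA), each read on both strands. Capitals mark these matches in the windows of Irf1 (chr11:53769764-53770063, plus strand), Irf2 (chr8:46739495-46739794, plus strand) and Irf8 (chr8:120736108-120736407, plus strand).
Irf1: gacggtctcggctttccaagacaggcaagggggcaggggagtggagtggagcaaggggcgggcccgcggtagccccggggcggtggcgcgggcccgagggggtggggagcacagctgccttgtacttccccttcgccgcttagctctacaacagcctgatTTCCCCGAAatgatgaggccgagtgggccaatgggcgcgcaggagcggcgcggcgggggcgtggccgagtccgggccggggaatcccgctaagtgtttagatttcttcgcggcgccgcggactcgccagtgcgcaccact
Irf2: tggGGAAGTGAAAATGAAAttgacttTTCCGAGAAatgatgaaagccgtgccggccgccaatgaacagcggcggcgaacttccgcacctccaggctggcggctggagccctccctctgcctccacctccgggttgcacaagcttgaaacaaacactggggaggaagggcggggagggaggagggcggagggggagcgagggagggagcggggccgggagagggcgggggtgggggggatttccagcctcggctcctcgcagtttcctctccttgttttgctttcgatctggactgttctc
Irf8: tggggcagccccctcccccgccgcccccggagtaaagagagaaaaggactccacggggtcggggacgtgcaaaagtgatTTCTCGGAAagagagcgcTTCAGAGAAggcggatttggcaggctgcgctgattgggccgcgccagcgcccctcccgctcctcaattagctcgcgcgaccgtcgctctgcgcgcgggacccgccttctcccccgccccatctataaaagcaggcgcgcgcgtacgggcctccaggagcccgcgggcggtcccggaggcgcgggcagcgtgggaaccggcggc
The Irf1 window held 1 GAS match, TTCCCCGAA, and the Irf8 window held 2, TTCTCGGAA and TTCAGAGAA. The Irf2 window held a GAS match, TTCCGAGAA, and an ISRE match, GAAAATGAAA, which overlapped a match to the joint element, GGAAGTGAAA. A GAS match was found in 3 of the 11 windows, against 8.30% of all 32851 windows in the table. An ISRE match was found in 1 of the 11, against 3.44% of all windows, and a match to the joint element in 1 of the 11, against 2.72%. A looser motif for NF-kB (GGG, any 5 bases, CC) matched in 8 of the 11 windows and in 50.8% of all windows. In the Irf1 window it included GGGGAATCCC, which reads the same motif on both strands. These matches are descriptions of letters only.

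Total counts ranged from 30078366 in PB to 47557598 in MCC. Levels are given as CPM, read counts scaled to a common library total, with library sizes adjusted by the trimmed mean of M values. Each group held 1 library and replicates were lacking, so no p-value is given and every difference compares these libraries. Ranges after a fold are exact 95% counting intervals, which cover counting error only. Of the marker lists, 8 of 8 macrophage markers reached 5 CPM in MCC and in BM, 4 of 8 in PB, 1 of 8 in iPSC and 0 of 8 in MEF. Their median was 780 CPM in MCC and 60.4 CPM in BM. Of 6 fibroblast markers, 6 reached 5 CPM in MCC and in MEF, 5 in iPSC, 4 in BM and 1 in PB. Their median was 3107 CPM in MCC, 1400 CPM in MEF and 16.7 CPM in iPSC. The fibroblast markers went both ways between MCC and MEF. Col3a1 (11734.5 CPM in MCC, 1770 CPM in MEF) and Pdgfra (665 and 107 CPM) were higher in MCC. Col1a1 (6563 and 8923 CPM), Col1a2 (5548 and 6384 CPM), Pdgfrb (99.8 and 479 CPM) and Thy1 (665 and 1030 CPM) were lower. In iPSC 6 of 6 pluripotency markers reached 5 CPM, in MCC 1 of 6, and in PB, BM and MEF 0. The 1 in MCC was Sox2, with 15.1 CPM in MCC, 148 CPM in iPSC and 0.439 CPM in MEF. PB and BM were mixtures, with 7 of 7 and 6 of 7 B and plasma cell markers, 6 of 6 and 4 of 6 T cell markers, and 5 of 7 and 7 of 7 neutrophil markers at 5 CPM. The 5 erythroid markers summed to 81399.7 CPM in PB and 10022 CPM in BM, and haemoglobin genes took 9.04% of PB counts and 1.06% of BM counts, although PB is described as CD45-positive. Every PB level is a share of a total that includes them. In such bulk samples fewer cells of a type and less RNA per cell cannot be told apart. The library codes of MCC, BM, iPSC and MEF run close together and that of PB does not, so for PB any batch effect cannot be told apart from the kind of cell.

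Irf8, the factor that with PU.1 directs monocyte and dendritic cell development, separated the leukocyte-containing libraries from the others by the widest margin of the 8 genes. It had 69.7 CPM in MCC, 156 CPM in PB, 272 CPM in BM, 1.49 CPM in iPSC and 0.0694 CPM in MEF. MCC, PB and BM were thus all far above iPSC and MEF, with 3013 reads in MCC and 3 in MEF. Irf8 was 1005-fold (344 to 4877) higher in MCC than in MEF, which ranked 60th of 11720 genes by ratio. It was 3.90-fold (3.75 to 4.07) lower in MCC than in BM and 2.23-fold (2.13 to 2.34) lower than in PB. The 78 Irf8 reads of iPSC stood beside 0 reads of Ptprc, while the 3 leukocyte markers summed to 38.1 CPM in that library and 1.69 CPM in MEF. The 8 dendritic cell markers had a median of 0.255 CPM in MCC, 9.61 CPM in PB and 24.5 CPM in BM, and 2 of them had 0 reads in MCC. Their sums were 44.0 CPM in MCC, 3709 CPM in PB and 856 CPM in BM, mostly from the MHC class II genes Cd74 and H2-Aa, which B cells also express, at 2648 and 1018 CPM in PB. Zbtb46 had 7.22 CPM in MCC, 0.670 CPM in PB and 13.4 CPM in BM. The part of dendritic cells, or of B cells, whose markers are given with Irf4 below, in the Irf8 differences was not tested. Irf8 lies on mm10 chromosome 8, 120736358 to 120756694, plus strand.

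Irf4, the relative of Irf8 that B cells, plasma cells and activated T cells use, was present in the native blood libraries and at a trace in MCC. Its level was 0.602 CPM in MCC (26 reads), 53.4 CPM in PB, 51.6 CPM in BM and 0.115 CPM in iPSC (6 reads), with 0 reads in MEF, where 3 reads would be 0.0694 CPM. With the scaling reported, PB and BM could not be told apart for this gene, with a ratio of 1.03-fold (0.969 to 1.11). Both lay far above the other 3 libraries. DESeq2 size factors moved the median log2 ratio of PB to BM over all genes from -0.18 to 0.02. They raised Irf4 in PB relative to BM alike, so this likeness depended on the scaling. Irf4 was 85.8-fold (58.4 to 132) lower in MCC than in BM and 88.8-fold (60.4 to 136) lower than in PB. Of the 7 B and plasma cell markers, whose median was 0.116 CPM in MCC, 162 CPM in PB and 125 CPM in BM, most ran the same way but not all. Pax5, the factor that fixes B cell identity, had 0.0463 CPM in MCC (2 reads), 449 CPM in PB and 125 CPM in BM. Of the genes that mark plasma cells, Jchain had 0.0926 CPM in MCC, 63.7 CPM in PB and 253 CPM in BM. Sdc1 ran the other way, with 125 CPM in MCC, 5.12 CPM in PB and 14.3 CPM in BM, and was highest in MEF at 232 CPM. Prdm1, a plasma cell regulator, had 2.73 CPM in MCC, 37.0 CPM in PB and 2.70 CPM in BM. The part of these cells in the Irf4 difference was not tested. Irf4 lies on chromosome 13, 30749226 to 30766976, plus strand.

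Irf7, the interferon-inducible member that amplifies interferon production, was at similar levels in MCC and marrow. It had 114 CPM in MCC, 181 CPM in PB, 108 CPM in BM, 1.43 CPM in iPSC and 3.42 CPM in MEF. The 3 leukocyte-containing libraries lay within a 1.67-fold range and stood apart from iPSC and MEF. Irf7 was 33.3-fold (28.3 to 39.5) higher in MCC than in MEF. The ratio of MCC to BM was 1.05-fold (1.01 to 1.10), and its direction turned when the libraries were scaled by DESeq2 size factors or by total counts. Irf7 lies on chromosome 7, 141262706 to 141266481, minus strand, and shares 1.19% of its exon bases with Phrf1 on the opposite strand.

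Irf3, the constitutive counterpart of Irf7, varied least. It had 70.5 CPM in MCC, 55.2 CPM in PB, 69.4 CPM in BM, 38.1 CPM in iPSC and 58.8 CPM in MEF. Its 5 levels thus lay close together, and MCC and BM could not be told apart, with a ratio of 1.02-fold (0.965 to 1.07). Irf3 was 1.20-fold (1.14 to 1.26) higher in MCC than in MEF. In PB it was 1.06-fold lower than in MEF, an order that did not hold under the other scalings. Irf3 lies on chromosome 7, 44997648 to 45002848, plus strand, and 2.56% of its exon bases lie in exons of Bcl2l12 on the opposite strand.

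Irf5, which carries Toll-like receptor signals to inflammatory cytokine genes, was higher in MCC than in fibroblasts and lower than in either native library. It stood at 31.4 CPM in MCC, 145 CPM in PB, 108 CPM in BM, 1.72 CPM in iPSC and 3.88 CPM in MEF. MCC lay between the native and the non-blood libraries without reaching either. The MCC level was 8.08-fold (6.88 to 9.54) above that of MEF, 3.45-fold (3.25 to 3.67) below that of BM and 4.62-fold (4.34 to 4.91) below that of PB. Of its exon bases on chromosome 6 (29526625 to 29541871, plus strand), 14.1% lie in exons of Tnpo3 on the opposite strand. No strand setting of the counting was found in the sources used here, so reads of Irf5 and Tnpo3 in these exons may not have been told apart.

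Irf9, the DNA-contacting subunit of the type I interferon complex, had 91.5 CPM in MCC, 117 CPM in PB, 133 CPM in BM, 11.2 CPM in iPSC and 18.2 CPM in MEF. MCC was close to the native libraries and apart from iPSC and MEF, though Irf9 was present in all 5. The gene was 5.02-fold (4.65 to 5.42) higher in MCC than in MEF and 1.45-fold (1.40 to 1.52) lower than in BM. It lies on chromosome 14, 55603571 to 55610030, plus strand, and shares 2.28% of its exon bases with Rnf31 on the same strand.

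Irf1, the activator induced by interferon gamma, was highest in PB and had nearly the same level in MCC and iPSC. Its levels were 50.9 CPM in MCC, 227 CPM in PB, 72.8 CPM in BM, 49.3 CPM in iPSC and 20.002 CPM in MEF. PB stood alone at the top, and MCC and iPSC could not be told apart, with a ratio of 1.03-fold (0.975 to 1.09). That likeness depended on the scaling. The log2 ratio of MCC to iPSC was 0.05 as reported, -0.35 with total counts and -0.29 with total counts without abundant genes. Irf1 was 2.55-fold (2.35 to 2.76) higher in MCC than in MEF and 4.46-fold (4.25 to 4.68) lower than in PB. It lies on chromosome 11, 53770014 to 53778374, plus strand, and shares 3.40% of its exon bases with Gm17334 on the opposite strand.

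Irf2, the member that competes with Irf1 for its sites, had 34.3 CPM in MCC, 144 CPM in PB, 80.4 CPM in BM, 8.11 CPM in iPSC and 13.9 CPM in MEF. The order was the same as for Irf1 except that iPSC lay below MEF. Irf2 was 2.46-fold (2.24 to 2.71) higher in MCC than in MEF and 4.19-fold (3.95 to 4.45) lower than in PB. It lies on chromosome 8, 46739732 to 46847458, plus strand.

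**Figure D1:**
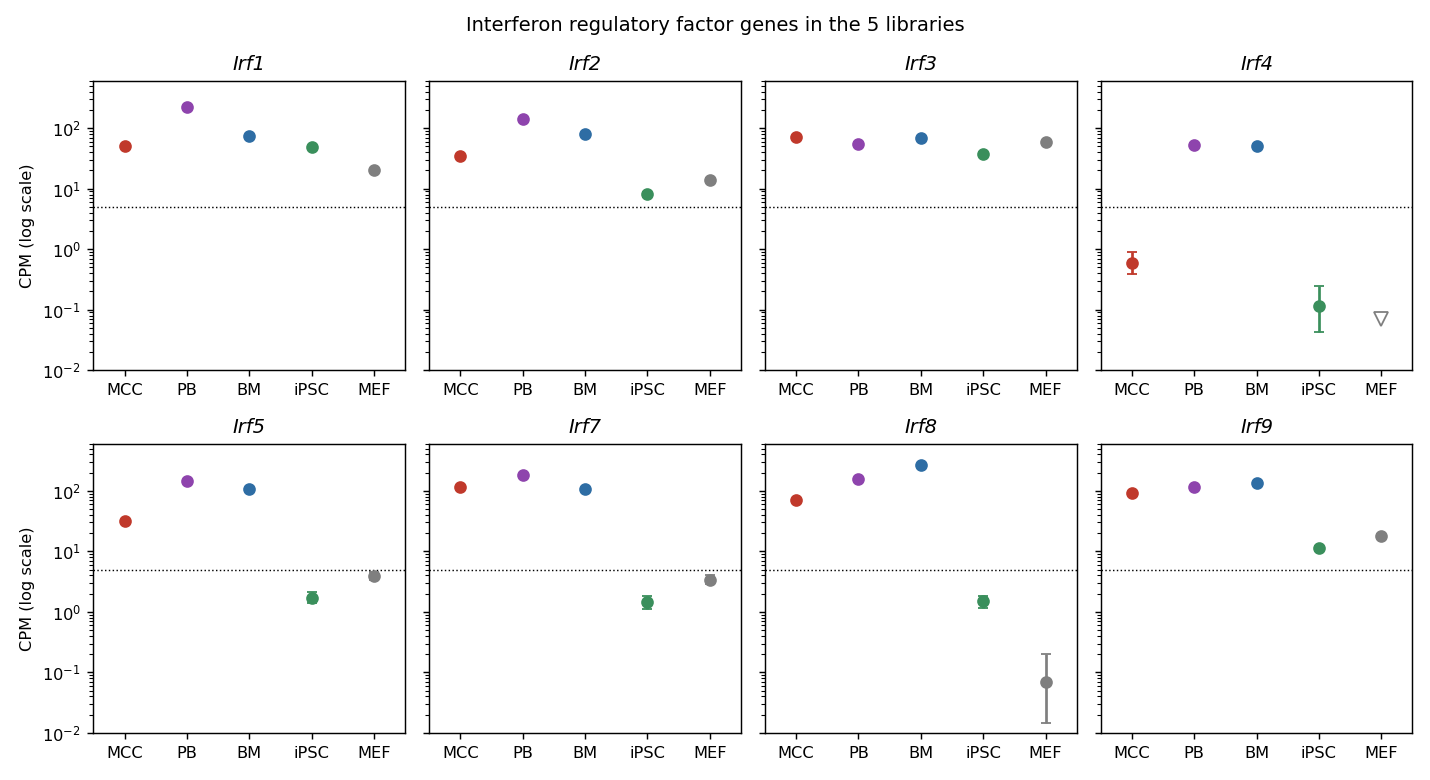
CPM of each of the 8 genes (log axis) in the 5 libraries, 1 point per library, with exact 95% counting intervals that are often smaller than the point; the dotted line marks 5 CPM, and the open triangle is the level of 3 reads in a library with 0 reads. Irf4, Irf5, Irf7 and Irf8 are at or below 3.88 CPM in iPSC and MEF, and Irf3 stays between 38.1 and 70.5 CPM.

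Over the 8 genes ranked by level, 32 pairs of neighbouring libraries were formed, and for 28 of them the counting interval of the ratio left out 1. The other 4 pairs were MCC and iPSC in Irf1, MCC and BM in Irf3, and PB and BM and then iPSC and MEF in Irf4. Of the 28, the order of MCC and BM in Irf7, of MEF and PB in Irf3 and of BM and PB in Irf9 turned under at least 1 other scaling.

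MCC was first set against MEF, the fibroblast library. The 4 comparisons of MCC share its 1 library. Genes were counted as different at a ratio of at least 4-fold with at least 5 CPM in the higher library. Of 8 members, 7 reached 5 CPM in either library. Irf5, Irf7, Irf8 and Irf9 were at least 4-fold higher in MCC, 4 of 8 members, beside 8.05% of the 11720 genes tested in the table. No member was at least 4-fold lower, beside 2.71% of genes. Irf1, Irf2 and Irf3 were also higher, by less than 4-fold, while Irf4 stayed below 5 CPM in both libraries. The median log2 ratio was 2.33 over the 7 members at 5 CPM and -0.01 over all genes tested.

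**Figure D2:**
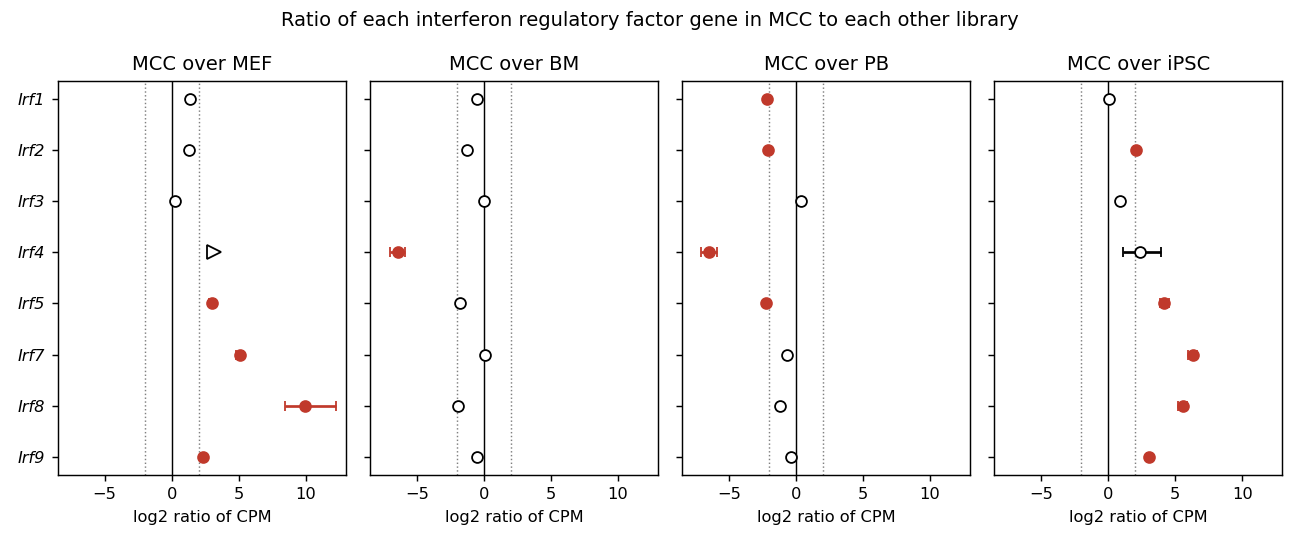
log2 ratio of CPM for each gene in MCC over MEF, BM, PB and iPSC, with exact 95% counting intervals. Filled points pass the 4-fold rule (dotted lines) with 5 CPM in the higher library. The open triangle is a ratio taken against 3 reads because MEF had 0 reads. In MCC over BM and MCC over PB, Irf4 is the filled point farthest to the left, and Irf8 is farthest to the right in MCC over MEF.

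Against marrow the family was nearer to even. Of 8 members, 0 were at least 4-fold higher in MCC, beside 15.6% of 12427 genes, and 1 was lower, Irf4, beside 13.5% of genes and 29.1% in either direction. Irf8, at 3.90-fold lower, fell just inside the 4-fold rule and passed it when the libraries were scaled by DESeq2 size factors or total counts. The median log2 ratio of the 8 members at 5 CPM was -0.88, against 0.11 over all genes.

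Against blood, 4 of 8 members were at least 4-fold lower in MCC, namely Irf1, Irf2, Irf4 and Irf5, beside 15.4% of 12545 genes, and 0 were higher, beside 21.5%, with 36.9% past the rule in either direction. The table's 2699 higher and 1927 lower genes became 2264 and 2328 with DESeq2 size factors. Of the 4 members, Irf1, Irf2 and Irf5 lay between 4.19-fold and 4.62-fold, close to the threshold, and at an 8-fold rule only 1 of the 4, Irf4, remained. Irf3 was the single member higher in MCC than in PB, by 1.28-fold (1.20 to 1.36). The median log2 ratio of the 8 members at 5 CPM was -1.61, against 0.38 over all genes.

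Against iPSC, 5 of 8 members passed the 4-fold rule upward in MCC and 0 downward. The higher ones were Irf7 by 79.5-fold (63.3 to 101), Irf8 by 46.7-fold (37.3 to 59.3), Irf5 by 18.2-fold (14.7 to 22.8), Irf9 by 8.16-fold (7.48 to 8.92) and Irf2 by 4.23-fold (3.80 to 4.73). Over the table, 11.3% of 12442 genes passed the rule upward in MCC and 9.77% downward, 1410 and 1215 genes, a split that turned to 1161 higher and 1613 lower under total counts. Irf2 was under 4-fold with that scaling. The median log2 ratio of the 7 members at 5 CPM was 3.03, against 0.14 over all genes.

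The native libraries shared most of this contrast with fibroblasts. In BM 6 of 8 members were at least 4-fold higher than in MEF, beside 17.0% of 12369 genes, and 0 were lower, beside 15.5%, with 32.5% past the rule in either direction. In PB 7 of 8 were at least 4-fold higher than in MEF, beside 18.9% of 12507 genes, and 0 were lower, beside 21.9%, with 40.8% past the rule in either direction. Irf2 was past 4-fold in BM and in PB but not in MCC, at 5.76-fold (5.28 to 6.30) and 10.3-fold (9.48 to 11.3) above MEF, and Irf1 in PB alone, at 11.3-fold (10.6 to 12.2). Irf4 was at least 744-fold higher in BM and at least 770.2-fold higher in PB, taken against 3 reads in MEF. These comparisons share the MEF library.

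Between PB and BM no member passed the 4-fold rule in either direction, beside 6.32% of 11377 genes higher in PB and 9.68% lower. Irf1 came nearest, 3.12-fold (2.98 to 3.26) higher in PB, and Irf8 went the other way, 1.75-fold (1.69 to 1.81) lower in PB. Between iPSC and MEF, 0 of 8 members were at least 4-fold higher in iPSC, beside 8.83% of 11931 genes, and 0 were lower, beside 6.37%. The table's split of 1054 higher and 760 lower genes became 1358 and 594 under total counts. At levels under 5 CPM Irf5 and Irf7 were 2.26-fold (1.74 to 2.95) and 2.39-fold (1.79 to 3.19) lower in iPSC. Irf8, also under 5 CPM, went the other way, 21.5-fold (7.09 to 107) higher in iPSC, with 78 reads against 3 in MEF. Irf4 had 6 reads in iPSC and 0 in MEF.

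Levels of different members were compared per kilobase of annotated exons, the union over all transcripts. The 8 genes summed to 106 CPM per kilobase in MCC, 245 in PB, 189 in BM, 27.8 in iPSC and 29.6 in MEF. Irf7 took the largest share in MCC, 28.5% of that sum, followed by Irf3 at 19.3% and Irf9 at 16.0%. Irf1 led in PB with 23.3%, Irf8 in BM with 20.4%, Irf1 in iPSC with 44.5% and Irf3 in MEF with 57.6%. These 5 leading genes stayed the same with the longest transcript or the longest coding transcript as the length. Irf8 was 6th in MCC per kilobase of exon union, at 9.33% of the sum, 5th with the longest transcript and 4th with the longest coding transcript.

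**Figure D3:**
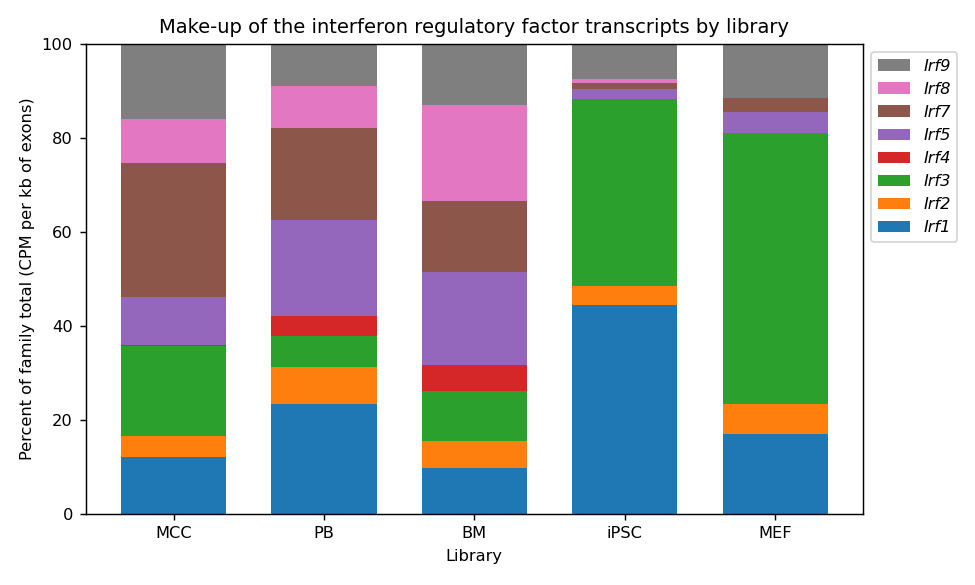
Share of each gene in the 8 genes' summed CPM per kilobase of exons, in percent, 1 stacked bar per library. Irf3 takes 19.3% in MCC and 57.6% in MEF, Irf7 takes 28.5% in MCC and 3.06% in MEF, and a band for Irf4 is visible only in PB (4.44%) and BM (5.57%).

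Pairs with opposed or related roles were then set against each other within each library, per kilobase. The ratio of inducible Irf7 to constitutive Irf3 was 1.47 (1.41 to 1.54) in MCC, 2.99 (2.83 to 3.16) in PB, 1.42 (1.36 to 1.49) in BM, 0.0344 (0.0269 to 0.0433) in iPSC and 0.0531 (0.0447 to 0.0627) in MEF. Irf7 was thus about level with Irf3 or above it in the leukocyte-containing libraries and far below it in the others, and with the longest transcript as the length the ratios of MCC and BM became 1.01 and 0.978. The ratio of Irf8 to Irf4 was 80.5 (54.9 to 123) in MCC, against 2.02 (1.91 to 2.14) in PB and 3.66 (3.50 to 3.84) in BM. With the longest coding transcript these became 194, 4.87 and 8.82, in the same order. In iPSC, with 78 Irf8 and 6 Irf4 reads, the ratio was 9.03 (3.97 to 25.4), and 21.8 with the longest coding transcript. In MEF, with 3 and 0 reads, no ratio could be formed. The ratio of activator Irf1 to its competitor Irf2 was 2.76 (2.58 to 2.95) in MCC, 2.93 (2.82 to 3.05) in PB, 1.69 (1.60 to 1.77) in BM, 11.3 (10.2 to 12.6) in iPSC and 2.67 (2.40 to 2.97) in MEF. iPSC stood above the other 4 libraries on this measure, and MCC, PB and MEF were close together. With the longest coding transcript the ratios were 1.73, 1.84, 1.06, 7.10 and 1.68 for MCC, PB, BM, iPSC and MEF, in the same order.

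Because MCC also held fibroblast transcripts, the members were read relative to Spi1, the gene of PU.1, which is restricted to blood cells and had 5 reads in MEF. Per Spi1 read, Irf9 had 0.350 (0.338 to 0.363) reads in MCC, 0.393 (0.378 to 0.409) in PB and 0.332 (0.322 to 0.342) in BM. These were close to each other. Per Spi1 read, Irf8 had 0.267 (0.256 to 0.278) reads in MCC, 0.521 (0.503 to 0.540) in PB and 0.678 (0.662 to 0.695) in BM, so MCC was lower on this scale too. Irf7 gave 0.436 (0.422 to 0.451) in MCC, 0.606 (0.586 to 0.627) in PB and 0.270 (0.261 to 0.279) in BM, with MCC between the native libraries. Per Spi1 read, Irf2, Irf4 and Irf5 were also lower in MCC than in PB and in BM. Irf1 in MCC lay near BM and below PB, and Irf3 was higher in MCC than in either. Relative to Ptprc the order of the libraries differed, and every member except Irf4 was higher in MCC than in PB and in BM. Ptprc had 64.3 CPM in MCC, 2327 CPM in PB and 525 CPM in BM. Per Ptprc read, Irf8 had 1.08 (1.03 to 1.14) reads in MCC, 0.0669 (0.0649 to 0.0689) in PB and 0.519 (0.507 to 0.531) in BM. Irf9 had 1.42 reads in MCC, 0.0505 in PB and 0.254 in BM, so its libraries were not close on this scale. Each ratio depends on the level of its denominator gene, and the part of fibroblasts in the differences was not tested. Irf9, Irf3, Irf2 and Irf1 are also transcribed in MEF, and which cells of MCC their reads came from was not tested.

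The genes around the family were described from 7 lists by role. Beside the counts given for them, the 4-fold rule held over all genes for 8.05% higher and 2.71% lower in MCC against MEF, 15.6% and 13.5% against BM, 21.5% and 15.4% against PB, and 11.3% and 9.77% against iPSC. The lists were chosen with earlier results of these data known, so these shares are given for scale only. Of 6 interferon ligand genes in the table, none reached 5 CPM in any library. Ifnb1, which encodes interferon beta, had 0.0694 CPM in MCC beside 0.0736 CPM in BM, each 3 reads, with 0 reads in MEF. Ifnz, the ligand gene highest in MCC, had 0.0926 CPM there and 0.185 CPM in MEF. The gene of interferon gamma, Ifng, named after its values were seen, had 0 reads in MCC, 2.51 CPM in PB and 0.270 CPM in BM. The other 15 ligand genes of the list, 13 of them interferon alpha genes, were not analysed here, so nothing is said of them.

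Of 10 genes for interferon receptors, JAK kinases and STAT proteins, 2 exceeded MEF by 4-fold or more in MCC and 0 were lower (median log2 ratio 0.92 over 9 at 5 CPM). They were Stat2, a partner of Irf9, by 6.90-fold (6.38 to 7.47), and Il10rb, a receptor chain for interferon lambda, by 4.03-fold (3.71 to 4.38). Jak1, the most abundant of the list in MCC, was close in both, at 354 CPM in MCC beside 283 CPM in MEF. Against BM 0 were higher and 1 lower, and against PB 0 were higher and 3 lower, where the shares over all genes were 15.6% and 13.5% against BM and 21.5% and 15.4% against PB. The one lower in both was Ifnlr1, named with its values known, the specific chain of the interferon lambda receptor, with 0 reads in MCC, 5.22 CPM in PB and 45.9 CPM in BM.

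Of 21 sensors, adaptors and kinases upstream of IRF3, IRF5 and IRF7, 7 exceeded MEF by 4-fold or more in MCC and 0 were lower (median 1.51), beside 8.05% and 2.71% of all genes. At a minimum of 20 CPM the count was 4. Tlr7, an RNA sensor of endosomes, had 40.1 CPM in MCC beside 0.0694 CPM in MEF, a 578-fold (198 to 2806) difference, and Zbp1, a sensor of Z-form nucleic acids, was 230.0-fold (128 to 461) higher. Unc93b1, which brings Toll-like receptors to endosomes, was the most abundant in MCC, with 292 CPM, where MEF had 20.5 CPM, a 14.3-fold (13.3 to 15.3) difference. Sting1, the adaptor for cytosolic DNA, had 138 CPM in MCC beside 57.8 CPM in MEF. Ifih1 and Tlr3, both sensors of double-stranded RNA, differed by 4.54-fold (3.97 to 5.19) and 5.81-fold (4.54 to 7.51), with MCC above. Against BM and against PB, 1 was higher and 1 lower each time, the higher one being Tlr3 in both. The kinase genes that phosphorylate IRF3 and IRF7, named after their values were seen, were Tbk1 at 42.1 CPM in MCC beside 28.0 CPM in MEF, and Ikbke at 45.6 CPM in MCC beside 15.7 CPM in MEF. Both were higher in the native libraries, Tbk1 at 74.5 CPM in PB and 61.3 CPM in BM, and Ikbke at 114 CPM in PB and 68.8 CPM in BM.

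Of 10 DNA-binding partners and corepressors of IRF proteins, 3 exceeded MEF by 4-fold or more in MCC and 0 were lower (median 2.95 over 6 at 5 CPM). They were Spi1 by 2261-fold (969 to 6964), Ikzf1 (Ikaros, a lymphoid and myeloid factor) by at least 358-fold, and Batf, an AP-1 factor that pairs with IRF4 and IRF8, by 52.8-fold (26.6 to 123). Against BM 1 was higher and 3 lower. The higher one, named after its values were seen, was Irf2bpl, by 5.71-fold (5.17 to 6.31). The lower ones, named after their values were seen except Ikzf1, were Spib at 0.995 CPM in MCC beside 175 CPM in BM, Ikzf3 at 0.0231 CPM (1 read) in MCC and 66.3 CPM in BM, and Ikzf1 by 18.7-fold (17.6 to 19.9). The same 3 lower genes were also lower in MCC than in PB. The corepressor gene Irf2bp2 had 91.9 CPM in MCC beside 106 CPM in MEF.

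Of 10 negative regulators, 5 exceeded MEF by 4-fold or more in MCC and 0 were lower (median 2.10 over 9 at 5 CPM). Ptpn6, which encodes the blood cell phosphatase SHP-1, was 395-fold (258 to 638) higher, and Usp18, which trims ISG15 from proteins and blocks the type I interferon receptor, 11.4-fold (9.21 to 14.3) higher. Trim21 was 7.04-fold (5.87 to 8.48) and the JAK inhibitor gene Socs1 4.30-fold (3.73 to 4.97) higher. Socs3, another inhibitor of cytokine signalling, had 228 CPM in MCC beside 25.1 CPM in MEF. Against BM 1 was higher and 1 lower, and against PB 0 were higher and 1 lower.

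Of 24 antiviral targets of the IRF9 complex, 18 exceeded MEF by 4-fold or more in MCC and 0 were lower (median log2 ratio 4.60). Ifi27l2a, a small interferon-induced protein gene, was highest in MCC at 1213 CPM and 1748-fold (1224 to 2591) above MEF, and Oas2, which makes the activator of an RNA-degrading enzyme, was 946-fold (323 to 4589) higher, with 3 reads in MEF. Oasl1 and Ifi44 were the least changed of those past the rule, by 6.70-fold (4.85 to 9.47) and 9.58-fold (7.01 to 13.4). Ifitm3, which blocks virus entry, had 1032 CPM in MCC beside 269 CPM in MEF. Against BM 7 were higher and 2 lower (median 0.88, against 0.11 over all genes), and against PB 2 were higher and 3 lower (median 0.38, as over all genes). The directions went by gene, the following being picked out after their values were seen. Ifit1 and Ifit3, of a family of antiviral RNA-binding proteins, were 7.56-fold (6.82 to 8.40) and 7.46-fold (6.84 to 8.15) higher in MCC than in BM. Rsad2 (viperin) and Oas3 were 11.2-fold (10.1 to 12.4) and 13.6-fold (12.5 to 14.8) lower in MCC than in BM.

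Of 23 genes induced by interferon gamma, many through IRF1, 15 exceeded MEF by 4-fold or more in MCC and 0 were lower (median 3.63 over 18 at 5 CPM). Irf1 itself was 2.55-fold higher. Casp1, the inflammasome protease, was 122-fold (87.0 to 178) and Iigp1, an immunity-related GTPase, 92.8-fold (56.0 to 166) higher. B2m and Psmb10, parts of MHC class I and of the immunoproteasome, exceeded MEF by 4.06-fold (3.99 to 4.13) and 4.14-fold (3.91 to 4.39), and Tapbp, of the peptide loading complex, had 150.3 CPM in MCC beside 38.1 CPM in MEF. Against BM 3 were higher and 2 lower, and against PB 0 were higher and 4 lower. Ciita, the MHC class II activator, named after its values were seen, was lower in both, at 0.278 CPM in MCC, 145 CPM in PB and 39.7 CPM in BM.

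Over BM the other list medians on the log2 scale were 0.00 for receptors, JAKs and STATs, -0.11 for sensors, -0.68 for partners, -0.02 for negative regulators and 0.40 for the interferon gamma targets, against 0.11 over all genes. Over PB they were -0.75, -0.36, -0.72, -0.39 and -0.45 in the same order of lists, against 0.38 over all genes. All 5 thus lay below the median of all genes against PB, and 4 of the 5 against BM. Over iPSC, 20 of the 24 antiviral targets, 13 of the 23 interferon gamma targets, 10 of the 21 sensors, 5 of the 10 receptor, JAK and STAT genes, 3 of the 10 partners and 3 of the 10 negative regulators passed the rule upward in MCC, with 0 downward in these lists, beside 11.3% upward and 9.77% downward over all genes.

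**Figure D4:**
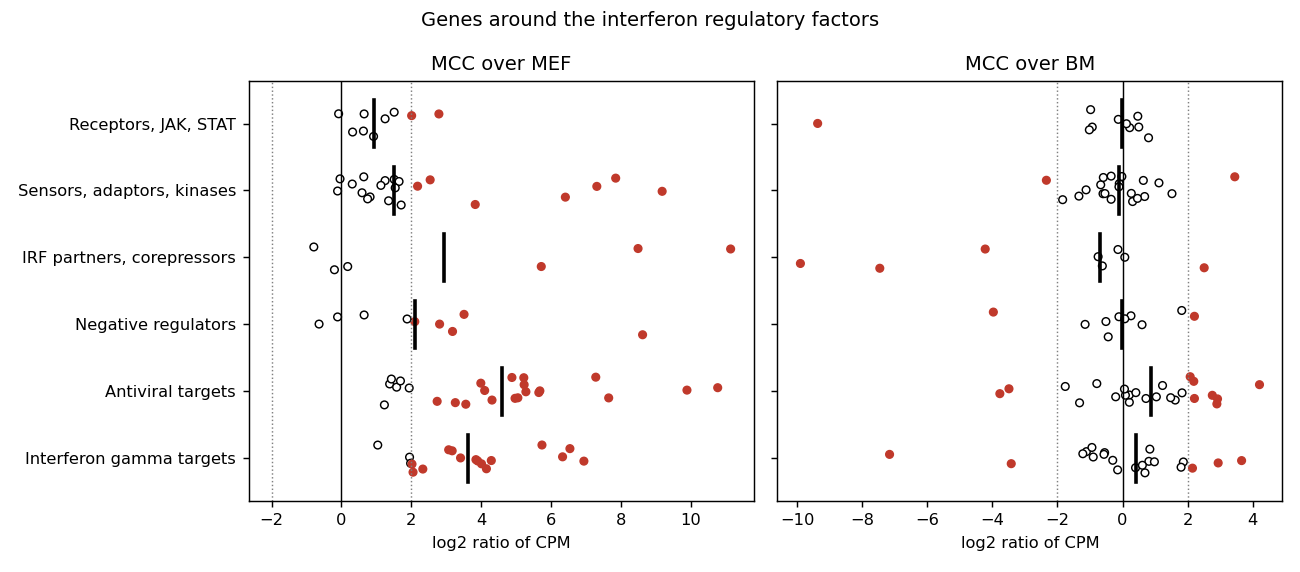
log2 ratio of CPM in MCC over MEF (left) and MCC over BM (right) for the genes of 6 lists that reach 5 CPM in either library, 1 point per gene, filled where past the 4-fold rule (dotted lines), with the list median as a black bar. The antiviral targets have a median of 4.60 over MEF and 0.88 over BM, and no filled point lies left of 0 over MEF.

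Finally, the genes with the profile most like each member were sought among 15274 named genes, by the root mean square distance between profiles of log2(CPM + 1) over the 5 libraries, each centred on its mean. For Irf8 they included Was, an actin regulator of blood cells (distance 0.25). For Irf7 they were Entpd1, the ectonucleotidase CD39 (0.17), and Slfn5 (0.25). For Irf4 they were Ear2, an eosinophil-type ribonuclease gene, and Lilra6 (both 0.16). For Irf2 they were Samhd1, an antiviral enzyme of nucleotide breakdown (0.14), and Atxn7l1 (0.19). For Irf9 they were Man2b1, a lysosomal mannosidase (0.21), and Eepd1 (0.27). For Irf5 they were Rgs2, a G protein regulator (0.19), and Arhgef6 (0.22). For Irf1 they were Zc3h6 (0.13) and Ubxn11 (0.16), and for Irf3 Rchy1, a ubiquitin ligase (0.08), and Zfp235 (0.09). Among the 8 genes the closest pair was Irf2 and Irf9 (0.55), followed by Irf5 and Irf7 (0.75). With 5 libraries these distances describe likeness only.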

How the data were processed

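PolyA RNA from Trizol-extracted total RNA was sequenced, per the labels' protocols. The authors deposited whole-number read counts per gene symbol, not normalized. STAR, featureCounts and mm10 were used, per the submitters' processing notes; their versions, annotation, strand setting and filters were not given in the sources used here. Columns were matched to libraries by library code, and 0 were unused.

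CPM values used TMM scaling over all 5 libraries (edgeR 4.0.16, R 4.3.3); all other steps used Python 3.11.15, numpy 2.4.6, pandas 2.3.3 and scipy 1.17.1, with plots by matplotlib 3.10.9. Counts under 3 were set to 3 in ratios. Intervals are exact, conditional binomial for ratios; no molecular identifiers are stated, so reads need not be independent molecules. No count model or test was fitted, as each group had 1 library. The arithmetic was tested on simulated data. Exon lengths and coordinates came from GENCODE M21, promoter windows from RefSeq.

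The members and lists were chosen with earlier results of these data known. Of 119 pathway genes, 104 were in the table; the others were not analysed here. From each list the text names the 2 genes highest in MCC and the 2 largest and 2 smallest called ratios to MEF, and for each member the likest profiles. Protein sequences were not used here, and some genes are not reported here. Alternatives were DESeq2 1.42.0 size factors, total counts with and without abundant genes, other level and fold minimums, and other lengths.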

Additional observations from a re-analysis of the deposited data

How the results depend on the processing

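No paired analysis was possible because each group had 1 library. The count of members past the 4-fold rule changed by more than 1.5 times in 3 of the 8 comparisons. For MCC against BM it was 1 as reported and 2 with DESeq2 size factors, with total counts and with total counts without the 10 most abundant genes of each library, mitochondrial genes and haemoglobins, Irf8 being added each time. For MCC against PB it fell to 1 at 8-fold, from the 4 genes reported. For iPSC against MEF it was 1 (Irf8) with no filter on the level, against 0 as reported. A minimum of 20 CPM moved 5 list counts by more than 1.5 times and others by less. For the sensors, adaptors and kinases it left 4 genes against MEF, 1 against BM and 1 against PB, for the negative regulators 1 against BM, and for the interferon gamma targets 3 against BM. Under other scalings no called ratio of a member changed sign, and the median over all genes moved from 0.11 to -0.04 for MCC against BM with total counts, from 0.38 to 0.07 for MCC against PB with DESeq2 size factors and from 0.14 to -0.30 for MCC against iPSC with total counts. It moved from -0.39 to -0.09 for PB against MEF and from -0.18 to 0.02 for PB against BM with DESeq2 size factors, and from -0.11 to 0.27 for iPSC against MEF with total counts. The uncalled ratios of Irf7 and Irf3 to BM, of Irf1 in MCC to iPSC and of Irf3 in PB to MEF changed direction, and that of Irf9 in PB to BM was 0.00 with DESeq2 size factors, against -0.18 as reported. Scaling without PB, an alternative chosen after seeing the data, changed no count of members. Counting error limits Irf4 in MCC, iPSC and MEF and Irf8 in MEF, where they rested on few reads, and the absence of replicates limits every difference.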
